A study of Mus musculus with 12 samples.

Results

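The respiratory chain of mouse femoral shaft is described here as 94 genes, counted in 12 libraries. The members were taken from the deposited normalized table, which lists 17408 genes, by the form of the symbol. Nuclear forms were Nduf with a, b, c, s or v and a digit, Sdha to Sdhd, Uqcr, Cox4 to Cox8 and Atp5. Mitochondrial forms were mt-Nd, mt-Co, mt-Cytb and mt-Atp. By symbol they fell into complex I (37 genes), complex II (4), complex III (8), complex IV (13) and the ATP synthase (16). Another 13 are encoded by mitochondrial DNA, and 3 are isoforms of complex IV subunits known from striated muscle, Cox6a2, Cox7a1 and Cox8b. Subunits with symbols of other forms were left out, and a few members, such as Atp5s and Cox7a2l, are not subunits proper. The 3 muscle isoforms were kept apart from the other 78 nuclear genes because skeletal muscle RNA differed strongly between libraries. The members were chosen by symbol and not by a test result, but the normalized table itself holds only genes with a mean count above 10. A further 12 symbols of the same form stood only in the full count table of 49315 genes; they were pseudogenes with few counts, plus Cox7b2 and Cox8c, which had 0 counts in every library.

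The respiratory chain sits in the inner mitochondrial membrane. Complexes I and II pass electrons from NADH and succinate to coenzyme Q, complex III passes them to cytochrome c, and complex IV passes them to oxygen. The protons that complexes I, III and IV move across the membrane drive the ATP synthase. Most subunits are nuclear genes, while the core of each proton pump is encoded by the mitochondrial genome, so that the chain depends on the expression of both genomes. Several complex IV subunits come in a general form and in a form of heart and skeletal muscle, and a few subunits have a relative whose expression is known to respond to low oxygen.

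The mice were males of 12 weeks that lacked catalase (Cat -/-, knockout, KO) or carried the normal gene (Cat +/+, wild type, WT). Catalase, an enzyme of peroxisomes, splits hydrogen peroxide. Ethanol was gavaged on 4 days in succession, the doses being 3, 3, 4 and 4.5 g/kg, given as a 31.5% (v/v) solution, and the other mice received the same volume of PBS; all were killed 6 hours after the last gavage. Each library was a pool of femoral shaft RNA from 2 mice, made after the marrow had been spun out, and each group had 3 libraries: KO ethanol (libraries 4 to 6), KO PBS (1 to 3), WT ethanol (10 to 12) and WT PBS (7 to 9). Pools, not single mice, are thus the replicates behind each p-value. The strain background and the way the allele was made were not given in the sources used here. Cat itself had 65.9 to 74.2 CPM (counts scaled to a common library size of 1000000 counts) in the 6 knockout libraries and 128 to 175 CPM in the 6 wild-type libraries, so its transcript was lower in KO but not absent, and no library went against its label.

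Total counts ran from 19950222 to 28789308 per library, and all 94 members passed the filter on low counts. Bone markers were present in every library: a list of 10 osteoblast genes took 1.12 to 4.2% of counts, and 6 osteocyte genes took 0.187 to 0.477%. RNA of other cells was present as well. Erythroid genes took 1.02 to 2.1% of counts, neutrophil genes 2.04 to 3.54%, and 20 skeletal muscle genes 0.144 to 3.88%. Of these lists, muscle varied most, and the muscle share was highest in WT ethanol library 12 and in WT PBS libraries 8 and 9 (3.2 to 3.88%, against 0.144 to 2.04% in the 9 other libraries). In bulk RNA, fewer cells of a type and less RNA per cell cannot be told apart.

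Promoter sequences were examined because nuclear respiratory chain genes are known to share recognition sequences for a few transcription factors, among them nuclear respiratory factor 1 (NRF1) and factors of the ETS family. RefSeq promoter sequence (GRCm38.p6) was at hand for 65 of the 94 members, 63 of them nuclear genes outside the muscle isoforms. The 250 bases before the RefSeq start, which can differ from the GENCODE start, were searched on both strands. An NRF1-type palindrome, GCGCANGCGC, was found in 12 of those 63 promoters (19%) and in 3.86% of all 27025 promoters of the same length. An ETS-type core, CCGGAAG, was found in 11 of 63 (17.5%) and in 7.05% of all promoters. The E-box CAGCTG, which myogenic factors can bind, was found in 5 of 63 (7.94%, against 12.8% of all promoters), and the TATA box TATAAA likewise in 5 of 63 (7.94%, against 13%). The median GC content was 56.4% in these 63 promoters and 52% in all promoters; whether the motif shares go with base composition was not tested.

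Both of the first-named motifs were found in 3 promoters, of Atp5h (chr11:115419920-115420169, minus strand), Cox6a1 (chr5:115348959-115349208, minus strand) and Sdhd (chr9:50603850-50604099, minus strand). Atp5h encodes a stalk subunit of the ATP synthase, Cox6a1 the general form of a complex IV subunit, and Sdhd a membrane anchor of complex II. They are printed 5′ to 3′ along the gene, with the matches in capitals; CTTCCGG is the ETS-type core read on the other strand. A match describes the letters and is not evidence of binding. The GENCODE start is base 115419962 for Atp5h and base 115348981 for Cox6a1. Both windows thus reach past that start into the gene, and their ETS-type matches lie in that part.
Atp5h: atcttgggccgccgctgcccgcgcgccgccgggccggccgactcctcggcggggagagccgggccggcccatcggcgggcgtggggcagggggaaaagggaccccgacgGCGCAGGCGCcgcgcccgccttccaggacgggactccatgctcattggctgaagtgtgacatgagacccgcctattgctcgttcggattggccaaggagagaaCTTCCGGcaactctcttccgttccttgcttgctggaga
Cox6a1: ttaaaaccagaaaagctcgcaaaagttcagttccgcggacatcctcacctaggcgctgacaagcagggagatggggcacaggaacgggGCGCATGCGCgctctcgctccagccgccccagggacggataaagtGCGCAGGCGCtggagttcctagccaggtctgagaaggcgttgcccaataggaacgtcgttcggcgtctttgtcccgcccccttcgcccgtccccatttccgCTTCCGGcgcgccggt
Sdhd: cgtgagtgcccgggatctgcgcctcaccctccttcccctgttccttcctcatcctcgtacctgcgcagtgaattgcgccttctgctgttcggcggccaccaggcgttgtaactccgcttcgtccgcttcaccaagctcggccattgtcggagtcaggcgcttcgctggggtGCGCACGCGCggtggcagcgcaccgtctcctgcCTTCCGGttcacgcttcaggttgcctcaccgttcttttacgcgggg

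The promoters of 1 muscle isoform and its general partner are shown for contrast, since Cox8b was among the most variable members across libraries and Cox8a the least variable nuclear one. Cox8b (chr7:140900447-140900696, minus strand, 47.2% GC) held none of the NRF1-type, ETS-type or TATA sequences and 1 CAGCTG, in capitals. Cox8a (chr19:7217617-7217866, minus strand, 52.8% GC) held none of the 4 sequences searched.
Cox8b: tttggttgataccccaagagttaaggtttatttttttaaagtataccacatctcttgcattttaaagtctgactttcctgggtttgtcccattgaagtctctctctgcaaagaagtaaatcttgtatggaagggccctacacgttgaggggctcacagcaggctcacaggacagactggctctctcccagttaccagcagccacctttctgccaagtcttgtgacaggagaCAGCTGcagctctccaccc
Cox8a: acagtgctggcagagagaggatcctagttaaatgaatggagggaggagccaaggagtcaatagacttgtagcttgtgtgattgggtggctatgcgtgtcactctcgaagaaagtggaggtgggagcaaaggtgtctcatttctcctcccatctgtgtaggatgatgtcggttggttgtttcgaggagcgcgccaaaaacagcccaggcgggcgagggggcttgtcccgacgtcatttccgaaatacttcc

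In level, the mitochondrially encoded genes stood far above the nuclear ones. On the scale of mean CPM per kilobase of exon over 12 libraries, mt-Co1, the catalytic subunit of complex IV, reached 8267 and mt-Cytb, the heme-bearing core of complex III, reached 5102. The nuclear median was 51.8 CPM per kilobase, with Atp5a1 highest at 223 and Atp5s, a factor named with the ATP synthase that is not one of its subunits proper, lowest at 4.5. Within complex I, Ndufb11 of the membrane arm was highest (122 CPM per kilobase) and Ndufa4l2 lowest (5.71). Within complex II these were Sdhd (79) and the other membrane anchor, Sdhc (28.6). Within complex III they were Uqcr10 (118) and the core protein Uqcrc1 (43.9), and within complex IV Cox8a (180) and Cox4i2 (12.8). The lowest members of complexes I and IV were thus both alternative forms, Ndufa4l2 of Ndufa4 and Cox4i2 of Cox4i1.

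The 13 mitochondrially encoded genes fell into 2 classes of level. The 7 genes mt-Nd1, mt-Nd2, mt-Co1, mt-Nd4, mt-Nd5, mt-Nd6 and mt-Cytb averaged at least 100 CPM, and the 6 genes mt-Co2, mt-Atp8, mt-Atp6, mt-Co3, mt-Nd3 and mt-Nd4l averaged less, mt-Atp8 only 0.865 CPM. The 6 low genes lie next to each other on the mitochondrial genome. A stretch of nuclear chromosome 1 holds annotated near-identical copies of 5 of them, which covered 99 to 99.9% of each gene, with 100% identity for mt-Co2, mt-Atp6, mt-Co3 and mt-Nd4l and 99.7% for mt-Nd3. Copies of the neighbouring genes mt-Nd4 and mt-Co1 covered only 63.6% and 31.3% of those genes. Reads from the copied stretch match both places, and how such reads were treated was not given in the sources used here. The levels of these 6 genes are therefore uncertain as measures of mitochondrial RNA, and their part in the low values was not tested; the copies themselves also had low levels, for example 1.66 to 6.71 CPM for mt-Atp6 beside 2.86 to 11.8 CPM for its copy Gm10925. The genes mt-Nd5 and mt-Nd6 overlap by 14 bases on opposite strands, and mt-Atp8 and mt-Atp6 by 43 bases on 1 strand; whether strand was used in counting was not given.

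**Figure D1:**
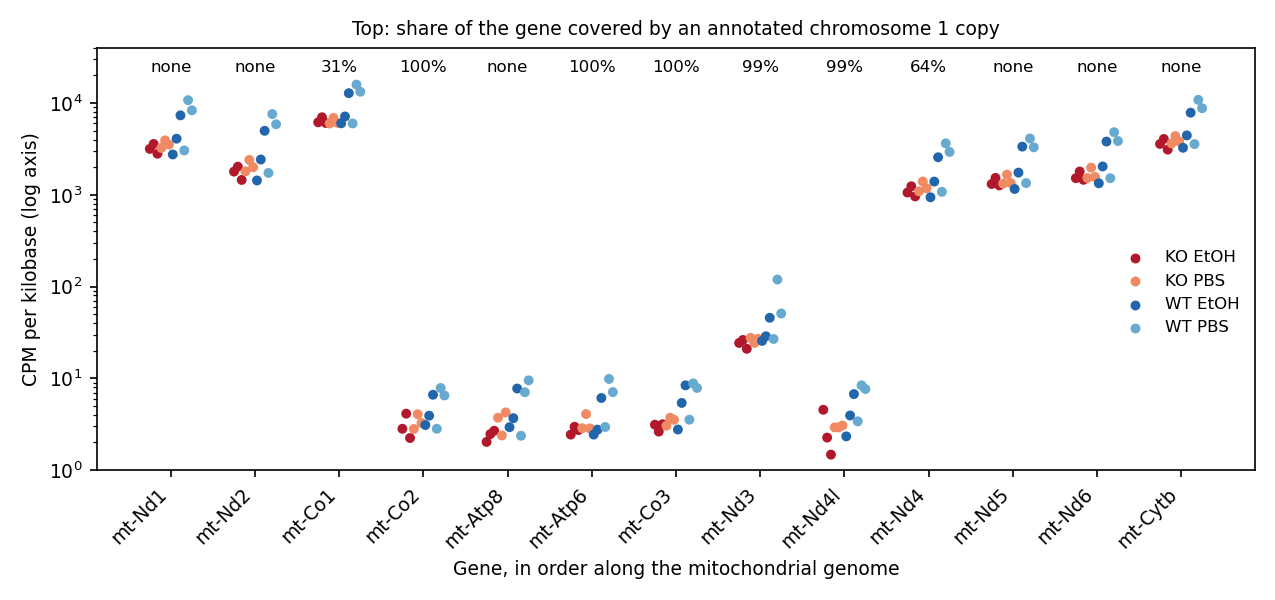
Level of each mitochondrially encoded gene in each of 12 libraries, in CPM per kilobase on a log axis, in the order of the genes along the mitochondrial genome; the numbers at the top give the share of the gene covered by an annotated copy on chromosome 1. The run of genes from mt-Co2 to mt-Nd4l lies far below the genes on both sides of it, and within each gene the 3 highest points are WT ethanol library 12 and WT PBS libraries 8 and 9.

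The chain was highest in 3 libraries, which were wild-type libraries of both gavages. The 78 nuclear genes together took 0.995% of counts in WT ethanol library 12, and 1.15% and 1.1% in WT PBS libraries 8 and 9, against 0.71 to 0.791% in the 9 other libraries. The 13 mitochondrially encoded genes took 5% in library 12, and 6.36% and 5.29% in libraries 8 and 9, against 2.19 to 2.92% in the others. The summed mitochondrial counts were 4.83 to 5.56 times the summed nuclear counts in these 3 libraries and 2.98 to 3.71 times in the others, so the mitochondrial genome was higher relative to the nuclear genes as well. These are the libraries with the highest muscle share. Other lists differed in part of them too. Erythroid genes took 1.02% in library 12, 1.08% in library 8 and 1.6% in library 9, against 1.49 to 2.1% in the others. Neutrophil genes took 3.54% in libraries 12 and 8 and 2.04% in library 9, against 2.35 to 3.07% in the others. The part of these lists in the levels of the chain was not tested. WT ethanol library 11 had the next highest muscle share (2.04%), with 0.788% for the nuclear chain and 2.92% for the mitochondrial genes, at the upper end of the 9 others. WT PBS library 7, whose muscle share was 0.35%, had 0.71% for the nuclear chain, the lowest of the 12. The 4 marker genes of brown adipocytes, another cell type rich in mitochondria, summed to 0.000804 to 0.00169% of counts. They had 0.00169% in library 12, 0.00162% in library 8 and 0.00114% in library 9. The part of muscle RNA in the levels of the chain was not tested; values without these libraries, and with muscle RNA as a covariate, stand beside the comparisons.

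**Figure D2:**
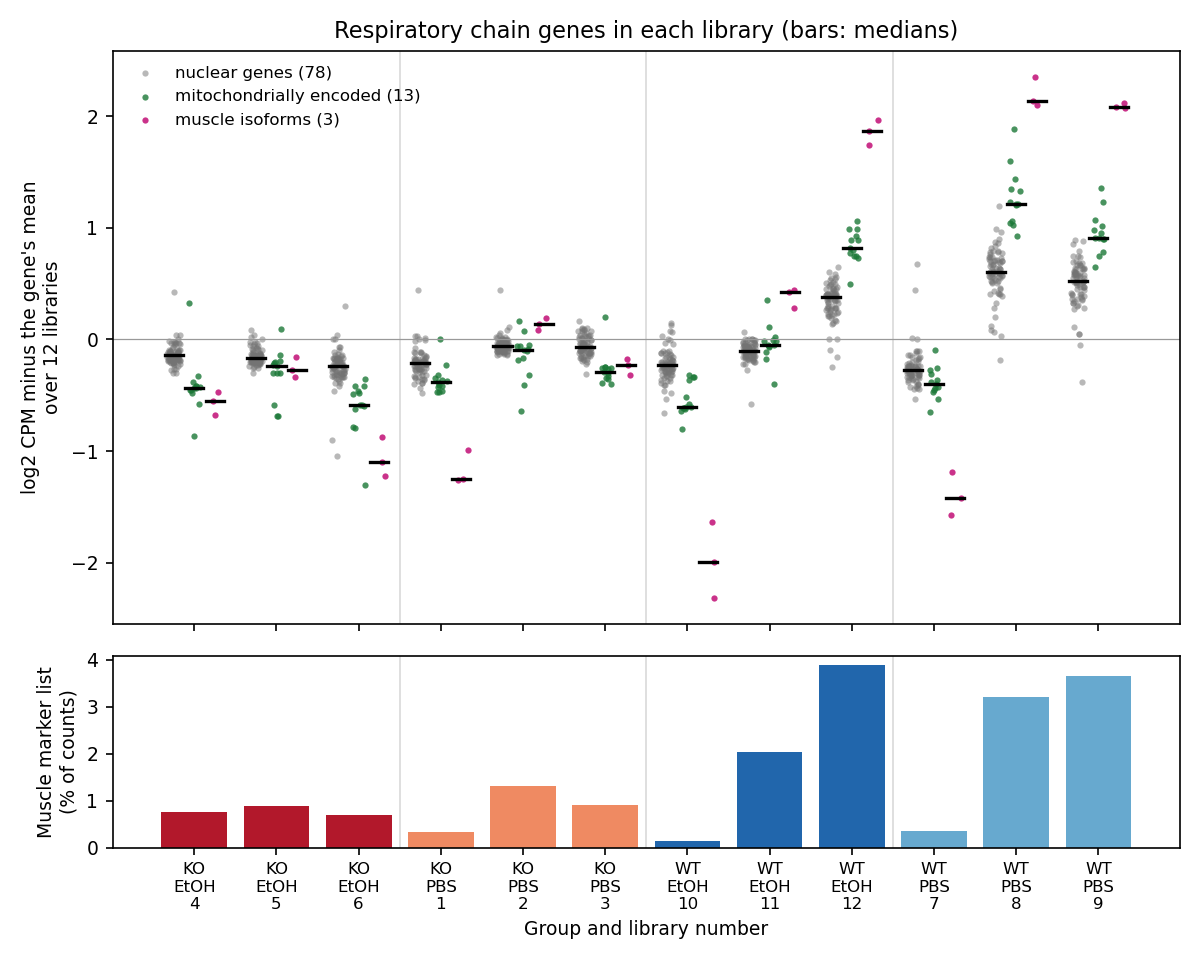
Top: each member's log2 CPM minus its mean over 12 libraries, for 78 nuclear genes, 13 mitochondrially encoded genes and 3 muscle isoforms, with the class median as a bar. Bottom: the share of counts taken by 20 skeletal muscle genes. In WT ethanol library 12 and WT PBS libraries 8 and 9 all 3 classes were high, with medians of 0.38, 0.61 and 0.52 for the nuclear genes.

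The spread between libraries differed by class. The ratio of the highest to the lowest library had a median of 1.92 over the 78 nuclear genes, 3.87 over the mitochondrially encoded genes and 17.5 over the muscle isoforms, beside 1.58 over the 18092 tested genes with counts in every library. Of the nuclear genes, 47 stayed under 2-fold and 6 under 1.5-fold. The steadiest was Cox8a (1.18-fold), and Cox7a2l, a supercomplex assembly factor related to Cox7a2, followed at 1.3-fold. Atp5g1, which encodes the same mature c-ring subunit of the ATP synthase as Atp5g2 and Atp5g3, varied 3.31-fold, while Atp5g2 varied 1.41-fold.

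The muscle isoforms varied most of all members. Cox6a2 (chr7:128205435-128206387, minus strand) had 36.1, 42 and 28.9 CPM per kilobase in KO ethanol libraries 4 to 6 and 22.1, 57.9 and 45.2 in KO PBS libraries 1 to 3. It had 10.6, 70.8 and 206 CPM per kilobase in WT ethanol libraries 10 to 12 and 23.2, 226 and 230 in WT PBS libraries 7 to 9. The wild-type groups thus held both the lowest and the highest libraries, and the knockout values lay between them. Its general partner Cox6a1 kept to 143 to 190 CPM per kilobase in all 12 libraries. As a share of the pair, Cox6a2 made up 14.6 to 20.1% in KO ethanol libraries and 11.3 to 24.5% in KO PBS libraries, against 5.65, 32.7 and 59.1% in WT ethanol libraries and 12.1, 56.8 and 56.7% in WT PBS libraries.

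Cox7a1 (chr7:30184144-30186078, plus strand) and Cox8b (chr7:140898945-140900446, minus strand) followed the same libraries. Cox7a1 made up 17.2 to 27.8% of its pair with Cox7a2 in KO ethanol libraries, 18.6 to 30.8% in KO PBS libraries, 12.7 to 54.9% in WT ethanol libraries and 15 to 61.6% in WT PBS libraries. Cox8b made up 11.9 to 20.7% of its pair with Cox8a in KO ethanol libraries, 11.1 to 24.7% in KO PBS libraries, 6.57 to 54.6% in WT ethanol libraries and 8.92 to 56.3% in WT PBS libraries. In each pair the muscle form exceeded the general form only in library 12 and in libraries 8 and 9. The general forms Cox6a1 and Cox8a were not among the genes that were high in those libraries, with 143 and 161 CPM per kilobase in library 12, while Cox7a2 reached 91.2 there and 106 and 95.5 in libraries 8 and 9, against 68.5 to 81.3 in the others. Cox6a2 lies within the span of Itgad on the opposite strand, whose mean level was 30.3 CPM.

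**Figure D3:**
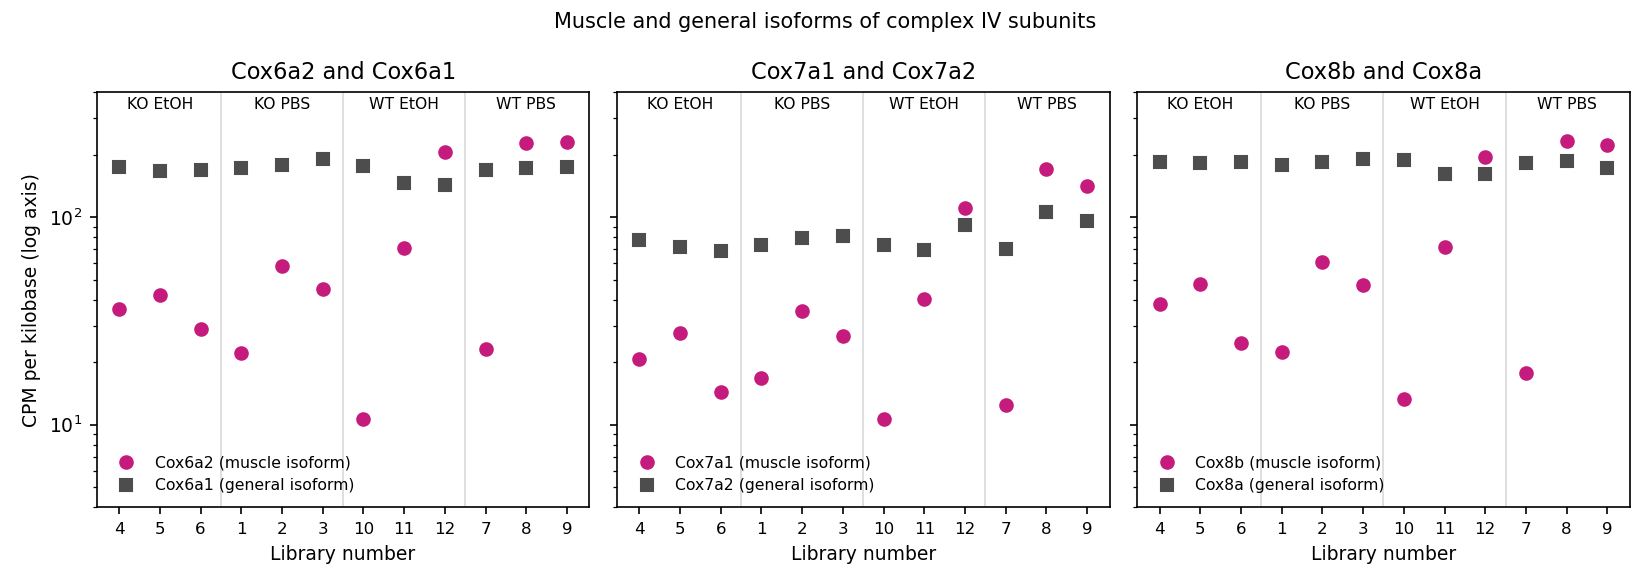
CPM per kilobase, on a log axis, of 3 muscle isoforms (circles) and their general partners (squares) in each library, grouped as KO ethanol, KO PBS, WT ethanol and WT PBS. The circles lie above the squares in WT ethanol library 12 and in WT PBS libraries 8 and 9 and below them in the other 9 libraries.

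The comparison of knockout with wild type asks whether loss of catalase, with or without ethanol, goes with other levels of the chain. No member passed an adjusted p of 0.05 in edgeR's quasi-likelihood test under PBS, where 0.011% of the 18161 genes tested did. Most members had a negative log2 difference (knockout over wild type), 75 of the 78 nuclear genes and all 13 mitochondrially encoded genes. The median difference was -0.46 over the nuclear genes, -1.01 over the mitochondrially encoded genes and -1.93 over the muscle isoforms, beside -0.0073 over all genes tested. Unadjusted p was under 0.05 for 35 of 94 members, beside 7.43% of all genes, and DESeq2, limma-voom and limma-trend called 0 members. The shares of all genes called by these other tools were counted only for ethanol against PBS. Their 0 for knockout against wild type, here and below, therefore says nothing particular about the members.

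By complex, the medians under PBS were -0.46 for complex I, -0.49 for complex II, -0.56 for complex III, -0.41 for complex IV and -0.43 for the ATP synthase. The lowest values were -0.77 for Ndufa5 of the matrix arm, -0.69 for the iron-sulfur subunit Sdhb, -0.73 for Uqcrq, -0.69 for Cox5a and -0.87 for Atp5g1, each with an adjusted p of 0.605. Sdhb had 80.6, 88.3 and 90 CPM in KO PBS libraries, against 77.5, 178 and 162 CPM in WT PBS libraries. Atp5g1 had 60.3, 72.6 and 67.5 CPM in KO PBS libraries, against 56.4, 173 and 139 CPM in WT PBS libraries. For both genes library 7 of the wild type lay below all 3 knockout libraries, so that the groups overlapped although the means differed. For mt-Co1 the groups overlapped too, with 9236, 10620 and 9401 CPM in KO PBS libraries, against 9247, 24522 and 20499 CPM in WT PBS libraries (log2 difference -0.89, SE 0.36, adjusted p 0.605).

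Cox6b2, an isoform of Cox6b1 known from testis, went the other way. It had 25.5, 24.6 and 27 CPM in KO PBS libraries, against 20.5, 22.2 and 19.4 CPM in WT PBS libraries, with no overlap (log2 difference 0.31, SE 0.11, adjusted p 0.605). It was the only member higher in all 3 KO PBS libraries than in any WT PBS library, as were 8.98% of all genes, and Cox4i2 and mt-Nd4l were lower in all 3, as were 5.16% of all genes.

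Under ethanol, again 0 members were called between knockout and wild type by edgeR, DESeq2, limma-voom or limma-trend, beside 0.011% of all genes in the edgeR test, and 1 member, mt-Co3, had an unadjusted p under 0.05, beside 5.78% of all genes. The medians were -0.22 over the nuclear genes, -0.59 over the mitochondrially encoded genes and -1.37 over the muscle isoforms. Sdhd, Uqcrc2, Atp5l and mt-Atp8 were lower in every KO ethanol library than in every WT ethanol library, 4 of 94 members, as were 4.04% of all genes; 0 members were higher in every one, while 7.12% of all genes were. Sdhd had 89.5, 88.4 and 91.6 CPM in KO ethanol libraries, against 95.8, 93.6 and 113 CPM in WT ethanol libraries (log2 difference -0.17, SE 0.16, adjusted p 0.829). Averaged over gavages, 0 members were called (0.011% of all genes were) by any of the 4 tools, and 48 members had an unadjusted p under 0.05, beside 14.3% of all genes.

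Without the 3 wild-type libraries named above, the medians under PBS changed sign and those under ethanol stayed below 0. In that setting, the knockout difference under PBS had a median of 0.15 over the nuclear genes, 0.15 over the mitochondrially encoded genes and 1.08 over the muscle isoforms, and 76 of the 78 nuclear genes were positive. Library 7 is then the only WT PBS library, and its spread is assumed to be that of the other groups. Under ethanol the medians without them were -0.029, -0.12 and -0.23, with 54 of 78 nuclear genes, 12 of 13 mitochondrially encoded genes and 3 of 3 muscle isoforms below 0. With the mean level of the 20 muscle genes as a covariate, the medians under PBS were -0.17 over the nuclear genes, -0.37 over the mitochondrially encoded genes and -0.0051 over the muscle isoforms, and under ethanol -0.064, -0.20 and 0.19. Averaged over gavages, the medians of the 3 classes were -0.34, -0.81 and -1.68 with all libraries. They were 0.065, 0.022 and 0.38 without the 3 libraries, and -0.12, -0.28 and 0.097 with the covariate. No member was called in either setting.

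**Figure D4:**
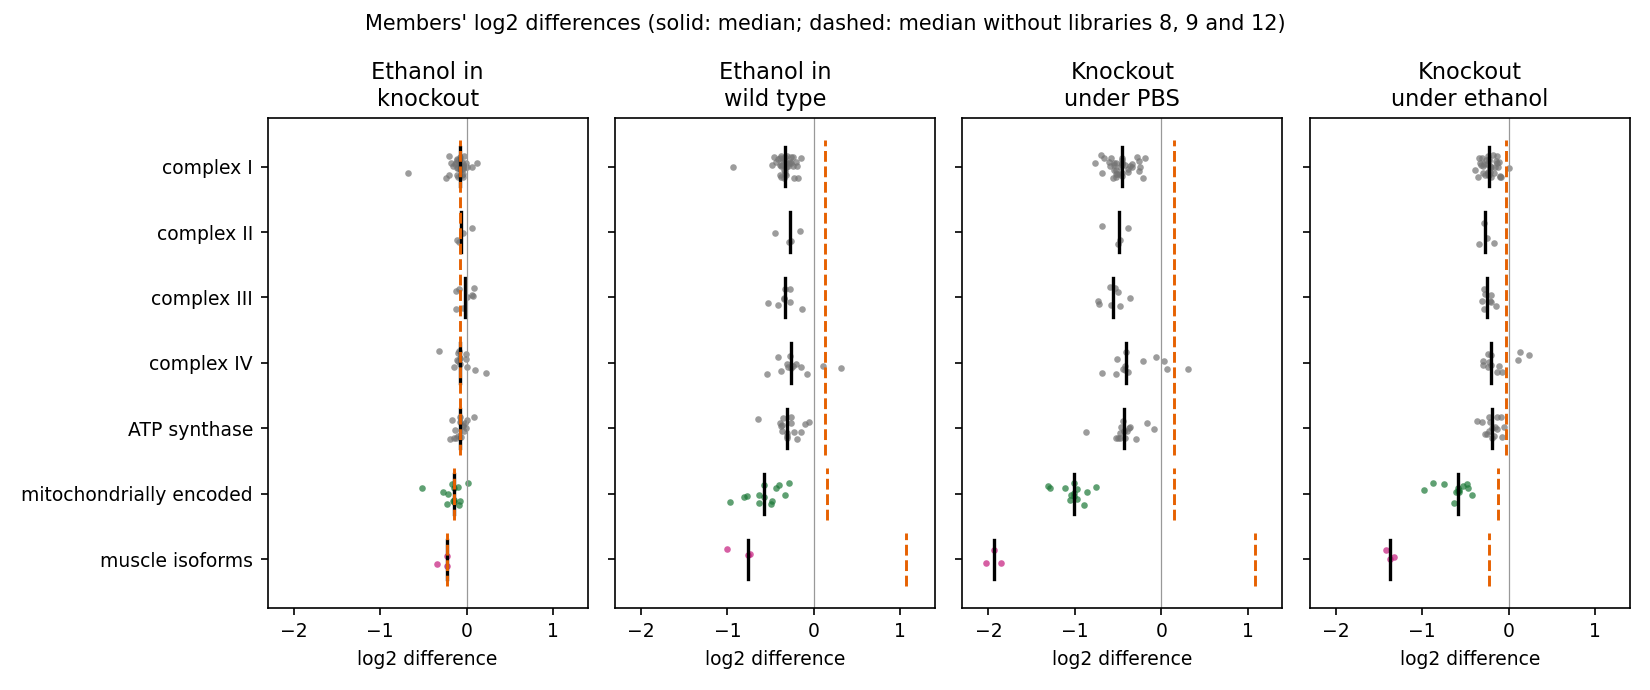
Log2 difference of each member (points) in 4 comparisons, by complex, with the class median as a solid bar and, dashed, the median of nuclear genes, mitochondrially encoded genes and muscle isoforms without libraries 8, 9 and 12. The dashed lines lie at -0.073, -0.15 and -0.23 for ethanol in knockout, at 0.13, 0.15 and 1.06 for ethanol in wild type, and at 0.15, 0.15 and 1.08 for knockout under PBS.

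The comparison of ethanol with PBS was made within each genotype. In knockout mice, whose 6 libraries include none of the 3 that stood apart, the differences between ethanol and PBS libraries were small. The muscle share was 0.698 to 0.89% in KO ethanol libraries and 0.341 to 1.31% in KO PBS libraries. The osteoblast list took 1.15 to 2.58% of counts in KO ethanol libraries and 3.56 to 4.2% in KO PBS libraries, without overlap, and 1.12 to 2.48% in WT ethanol libraries and 2.27 to 2.87% in WT PBS libraries, with overlap. The osteoclast list took 0.252 to 0.302% in KO ethanol libraries and 0.235 to 0.267% in KO PBS libraries, with overlap, and 0.285 to 0.398% in WT ethanol libraries and 0.218 to 0.26% in WT PBS libraries, without overlap. Their part in the ethanol differences below, averaged ones included, was not tested. No member was called by edgeR, DESeq2, limma-voom or limma-trend, beside 1.87% of all genes in the edgeR test, and 1 member, Ndufa4l2, had an unadjusted p under 0.05, beside 16.4% of all genes. The medians were -0.075 over the nuclear genes, -0.15 over the mitochondrially encoded genes and -0.23 over the muscle isoforms, beside 0.00014 over all genes. They were small but mostly of 1 sign, negative for 66 of 78 nuclear genes and 12 of 13 mitochondrially encoded genes, beside 9076 of 18161 genes tested. As medians of log2 CPM minus each gene's mean, the libraries overlapped. The nuclear genes had -0.14, -0.16 and -0.24 in KO ethanol libraries, against -0.22, -0.06 and -0.06 in KO PBS libraries. The mitochondrially encoded genes had -0.43, -0.24 and -0.58, against -0.38, -0.09 and -0.29. In complex I, Ndufa4l2, Ndufs8, Ndufb7 and Ndufa1 were lower in every ethanol library than in every PBS library, as were 16.0% of all genes, and Cox7a2l was higher in every one, as were 16.3% of all genes.

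In wild-type mice the medians were -0.32 over the nuclear genes, -0.58 over the mitochondrially encoded genes and -0.76 over the muscle isoforms, beside -0.018 over all genes. No member was called by edgeR, limma-voom or limma-trend and 1 by DESeq2 (Ndufa4l2), beside 1.26% of all genes in the edgeR test and 4.03% by DESeq2; 5 members had an unadjusted p under 0.05, beside 16.0% of all genes. Every ethanol library lay below every PBS library for Ndufa4l2, as for 9.06% of all genes, and above for Cox6b2, as for 7.32%. The muscle share was 0.144, 2.04 and 3.88% in WT ethanol libraries, against 0.35, 3.2 and 3.65% in WT PBS libraries, so each gavage held libraries of both kinds. Without libraries 8, 9 and 12 the medians were 0.13, 0.15 and 1.06, and with the muscle covariate -0.17, -0.31 and -0.35. The difference between the genotypes in the ethanol effect was tested as an interaction. By any of the 4 tools 0 members were called, and by edgeR 0.0% of all genes were. The shares of all genes by the other tools were not counted. In the interaction 0 members had an unadjusted p under 0.05, beside 1.98% of all genes. Its median over the nuclear genes was 0.23, and -0.19 without the 3 libraries.

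Averaged over both genotypes, ethanol changed 2 members, beside 10.8% of all genes (5.81% lower and 5.02% higher). Ndufa4l2 was lower and Cox6b2 was higher. By DESeq2 there were 3, beside 14% of all genes, the third being Ndufs8, which lay just outside the threshold in edgeR. Both limma-voom and limma-trend called 2, beside 10.9% of all genes by limma-voom and 11.5% by limma-trend. At an unadjusted p under 0.05 there were 6 members, beside 26.2% of all genes. Without library 7, 19 of 94 members were called, beside 11.7% of all genes.

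Ndufa4l2 (chr10:127514967-127517154, plus strand) is counted with complex I by its symbol; it is a relative of Ndufa4, a protein found with complex IV, and is known as a gene induced by low oxygen. It had 4.76, 5.71 and 3.14 CPM in KO ethanol libraries, against 7.99, 7.99 and 5.83 CPM in KO PBS libraries. In wild type it had 3.73, 3.94 and 5.9 CPM in ethanol libraries, against 7.97, 7.16 and 10.9 CPM in PBS libraries. In both genotypes every ethanol library lay below every PBS library, and Ndufa4l2 was the only member of which this was true, as it was of 5.46% of all genes. The log2 difference was -0.68 in knockout (SE 0.25, adjusted p 0.193), -0.94 in wild type (SE 0.25, adjusted p 0.0986) and -0.81 averaged over genotypes (SE 0.18, adjusted p 0.0156, 0.57-fold). The averaged difference passed the threshold in 22 of 22 alternative settings, with adjusted p between 0.000485 and 0.0448, also without libraries 8, 9 and 12 (-0.86, SE 0.19, adjusted p 0.0209). Its counts were low, 81 to 235 per library, and its annotated 3′ end overlaps Shmt2, on the opposite strand and at a mean of 68.5 CPM, by 32 bases.

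As a share of its pair with Ndufa4 per kilobase, Ndufa4l2 made up 4.51% ± 1.08 in KO ethanol libraries and 6.71% ± 1.32 in KO PBS libraries, and 3.74% ± 0.279 in WT ethanol libraries and 5.99% ± 2.16 in WT PBS libraries (SD, n = 3 each). Ndufa4 itself had 87 ± 4.41 CPM per kilobase in KO ethanol libraries and 92.7 ± 6.63 in KO PBS libraries, and 106 ± 26.6 in WT ethanol libraries and 134 ± 45.1 in WT PBS libraries. Cox4i2, the other alternative form that is known to respond to oxygen, had 8.94, 10 and 4.71 CPM in KO ethanol libraries, against 9.91, 10.5 and 9.22 CPM in KO PBS libraries. In wild type it had 8.39, 8.03 and 11.3 CPM in ethanol libraries, against 15.5, 11.2 and 13.5 CPM in PBS libraries. The groups overlapped in both genotypes, and the averaged log2 difference of -0.43 (SE 0.17) did not pass the test (adjusted p 0.135).

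Cox6b2 (chr7:4751792-4753094, minus strand) had 33.9, 25.3 and 31.1 CPM in KO ethanol libraries, against 25.5, 24.6 and 27 CPM in KO PBS libraries. In wild type it had 27.9, 25.3 and 23.6 CPM in ethanol libraries, against 20.5, 22.2 and 19.4 CPM in PBS libraries. The groups overlapped in knockout and did not in wild type. The averaged difference was 0.27 (SE 0.076, adjusted p 0.0431, 1.2-fold), and it passed the threshold in 12 of 22 alternative settings, with adjusted p between 0.0148 and 0.108. Its general partner Cox6b1 had 98.5 to 108 CPM in KO ethanol libraries, 103 to 118 CPM in KO PBS libraries, 101 to 144 CPM in WT ethanol libraries and 101 to 179 CPM in WT PBS libraries.

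Ndufs8 (chr19:3908863-3912774, minus strand), an iron-sulfur subunit of the arm of complex I that takes up electrons, had 48.4, 48.3 and 43 CPM in KO ethanol libraries, against 54.3, 53.3 and 57.3 CPM in KO PBS libraries. In wild type it had 49.6, 47.4 and 54.6 CPM in ethanol libraries, against 50.7, 83.2 and 75.2 CPM in PBS libraries. The groups were apart in knockout and overlapped in wild type through library 7. The averaged difference was -0.35 (SE 0.10) with an adjusted p of 0.0503, and that in knockout alone was -0.24 (SE 0.14, adjusted p 0.467). The averaged one passed the threshold in 5 of 22 alternative settings, with adjusted p between 0.0019 and 0.117. Ndufb7 of the membrane arm had 67.6, 64.7 and 62.8 CPM in KO ethanol libraries, against 69.9, 76.6 and 78 CPM in KO PBS libraries, also without overlap (log2 difference -0.20, SE 0.12, adjusted p 0.476).

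**Figure D5:**
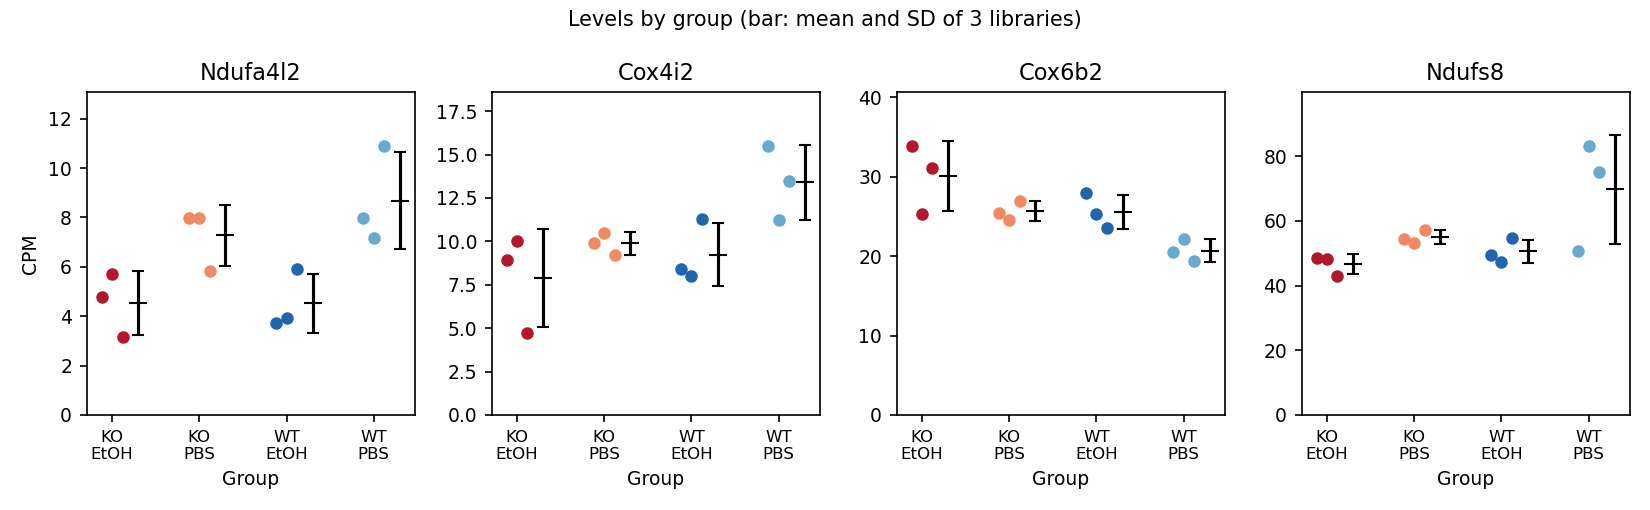
CPM of 4 members in each library by group, with the mean and SD of 3 libraries beside the points. Every ethanol point of Ndufa4l2 lies below every PBS point of the same genotype; for Cox4i2 the groups overlap in both genotypes, for Cox6b2 in knockout and for Ndufs8 in wild type.

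Other members were called when the 3 libraries were left out. The averaged ethanol effect then called 5 members, beside 8.6% of all genes: Ndufa4l2 was lower, while Uqcrh (0.17, SE 0.047, adjusted p 0.0448), Atp5d (0.19, SE 0.052, adjusted p 0.0475), Sdhd (0.17, SE 0.04, adjusted p 0.0237) and Cox7a2l (0.19, SE 0.046, adjusted p 0.0293) were higher. Uqcrh is the hinge protein of complex III and Atp5d a subunit of the rotor of the ATP synthase. Uqcrh had 108, 106 and 98.7 CPM in KO ethanol libraries, against 95.2, 101 and 103 CPM in KO PBS libraries, and in wild type 113 and 107 CPM in ethanol libraries 10 and 11, against 91.3 CPM in PBS library 7. With all 12 libraries none of these 4 was called. Cox6b2 was not called there (0.31, adjusted p 0.0569). The wild-type side of that setting rests on 3 libraries, 1 of them PBS.

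Genes that build and serve the chain were counted from lists of related function. In the 4 comparisons within a genotype or a gavage, edgeR called 0 of 15 complex I assembly factors, 0 of 30 assembly factors of the other complexes, 0 of 26 genes of mitochondrial biogenesis and mitochondrial gene expression, 0 of 19 electron carriers and feeders, 0 of 18 genes of pyruvate dehydrogenase and the citric acid cycle, 0 of 8 inner membrane carriers and uncoupling proteins, 0 of 10 chaperones and proteases, and 0 of 78 mitochondrial ribosomal proteins. Of all genes tested, edgeR called 1.87% for ethanol in knockout, 1.26% for ethanol in wild type and 0.011% in each knockout comparison. Of the 204 genes of these lists, 15 had an unadjusted p under 0.05 for ethanol in knockout (16.4% of all genes did), 48 for ethanol in wild type (16.0%), 51 for knockout under PBS (7.43%) and 1 for knockout under ethanol (5.78%). DESeq2 called 1 of them for ethanol in knockout (5.43% of all genes), 8 for ethanol in wild type (4.03%) and 0 in both knockout comparisons, and limma-voom and limma-trend called 0. For ethanol in knockout and in wild type, limma-voom called 2.51% and 0.837% of all genes, and limma-trend 2.07% and 1.44%. In the averaged ethanol effect edgeR called 17 of the 204 genes of these lists, beside 10.8% of all genes in either direction. Each of the 17 was lower, while 5.81% of all genes were called lower and 5.02% higher. In either direction DESeq2 called 26, limma-voom 16 and limma-trend 15, beside 14%, 10.9% and 11.5% of all genes. The 17 called by edgeR were 9 of the 78 ribosomal proteins, 3 electron carriers and feeders, 3 genes of biogenesis and expression, 1 assembly factor and 1 gene of the citric acid cycle.

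Of these, Coq7, an enzyme of coenzyme Q synthesis, had 11.2 ± 0.199 CPM in KO ethanol libraries and 15.3 ± 0.469 CPM in KO PBS libraries, and 12.7 ± 1.51 CPM in WT ethanol libraries and 20.3 ± 4.99 CPM in WT PBS libraries (SD, n = 3 each). Its averaged log2 difference was -0.56 (SE 0.11, adjusted p 0.00925). Every ethanol library lay below every PBS library in both genotypes, as for 5.46% of all genes. Coq6 (-0.33, adjusted p 0.0159) and Pdss1 (-0.26, adjusted p 0.0348), enzymes of the same synthesis, were lower as well. Lrpprc, which stabilises mitochondrial messenger RNA, was lower (-0.30, adjusted p 0.0124), as were Elac2, which trims mitochondrial transfer RNA (-0.26, adjusted p 0.0152), and the coactivator Pprc1 (-0.40, adjusted p 0.0221). Among the ribosomal proteins the largest differences were those of Mrps28 (-0.48), Mrpl54 (-0.44), Mrpl47 (-0.34) and Mrpl52 (-0.31). Cox15, needed for heme A of complex IV (-0.15, adjusted p 0.0325), and Suclg2 of the citric acid cycle (-0.31, adjusted p 0.0209) were the remaining calls. Like Coq7, Coq6, Lrpprc, Elac2, Cox15, Suclg2, Mrpl47, Mrpl41, Mrpl36 and Mrpl19 were lower without overlap in both genotypes. Among the list genes, overlap was looked at only in those already called from the same values. It describes these genes and gives the calls no further support. The other called genes of the lists overlapped in a single genotype.

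These list counts moved with the libraries used. Without libraries 8, 9 and 12, where 8.6% of all genes were called in either direction, 1 of 78 ribosomal proteins was called (lower), 1 gene of biogenesis and expression (lower) and 3 electron carriers and feeders (2 higher and 1 lower). With the muscle covariate 13 of the 78 ribosomal proteins were called, beside 15.1% of all genes. Without library 7 there were 25 of 78, beside 11.7%, and without library 3 there were 4, beside 5.65%. The assembly factors of complexes II to V and the genes of pyruvate dehydrogenase and the citric acid cycle both fell to 0 calls without library 2, beside 5.76% of all genes. Without library 7 they rose to 8 and 5 calls. The regulators Ppargc1a (-0.50, adjusted p 0.716), Ppargc1b (-0.14, adjusted p 0.579), Nrf1 (0.085, adjusted p 0.372), Tfam (-0.094, adjusted p 0.485) and Esrra (-0.18, adjusted p 0.363) did not pass in the averaged ethanol effect, nor in any other comparison.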

How the data were processed

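Whole-number counts per Ensembl gene, not normalized, were deposited by the authors for 12 libraries of femoral shaft RNA. The deposited normalized table holds a signal, which is each count divided by 1 factor per library (largest relative spread 9.88e-10), for genes with a mean count above 10. Per the submitters' processing notes, Trimmomatic 0.36, STAR 2.5.2b, featureCounts of Subread 1.5.2 and GRCm38 were used; strand and multi-mapping settings were not given in the sources used here. Gene positions and exon lengths came from GENCODE (GRCm38) and promoters from RefSeq (GRCm38.p6); coordinates count from 1.

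Counts were fitted in R 4.3.3 with edgeR 4.0.16 (TMM factors of 0.908 to 1.05, filterByExpr with a count of 10, robust quasi-likelihood test, 1 fit of all 4 groups with 8 residual degrees of freedom). P-values were adjusted by Benjamini-Hochberg over 18161 genes with a threshold of 0.05. SE is the log2 difference divided by the root of F. CPM are counts scaled by TMM to a library size of 1000000 counts, and CPM per kilobase divides by exon length. DESeq2 1.42.0, limma 3.58.1 (voom, and trend on log2 of the deposited signal plus 1), other scalings and filters, a fit of only the groups compared, the muscle list as a covariate and leaving out libraries were alternatives. Alternatives for the lists of related genes were added after seeing the data. The fit was also run on simulated counts with planted changes in 1 group. Those counts held no shared muscle RNA differences between libraries, so that run cannot show how the fit deals with them. The mean of a class is not tested, and medians are descriptions.

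The members, gene lists and tests were chosen with earlier results of these data known. Genes named with values are those called, or else the smallest p-values, the extremes of each complex, the isoform pairs, the mitochondrially encoded genes, the called list genes and the regulators; the genes called in single alternatives, the genes whose groups did not overlap, and Ndufb7 were named after their values were seen. Depth was 19950222 to 28789308 counts per library, so single members had 12 to 493199 counts.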

Additional observations from a re-analysis of the deposited data

How the results depend on the processing

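Of the counts of members called, those for knockout under PBS, knockout under ethanol, the interaction and knockout averaged over gavages were 0 in every alternative run. For ethanol in knockout the count was 0, but 2 (Ndufb7 and Ndufs8) in a fit of only the 2 groups compared (9.44% of all genes) and 1 (Ndufs8) without libraries 8, 9 and 12 (7.03%); it was 0 without any single library. For ethanol in wild type it was 0, but 1 (Ndufa4l2) with DESeq2 (4.03% of all genes), and it ran from 0 to 5 over the fits that left out 1 library, 5 being without library 7 (Atp5g3, Atp5h, Ndufb10, Ndufs8 and Uqcrc2; 1.74% of all genes). For ethanol averaged over genotypes it was 2, but 4 with the muscle list as a covariate (Cox6b2, Ndufa4l2, Ndufb7 and Ndufs8; 15.1% of all genes) and 5 without libraries 8, 9 and 12 (8.6%), and it ran from 1 to 19 over the fits that left out 1 library, again highest without library 7 (11.7%). The cause of these moves was not tested.

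The medians for ethanol in wild type were 0.13 (nuclear) and 0.15 (mitochondrially encoded) without libraries 8, 9 and 12; with 1 library left out they ran from -0.55 to -0.14 and from -1.0 to -0.23. For knockout under PBS they were 0.15 and 0.15 without those 3 libraries, and the mitochondrially encoded median was -0.37 with the muscle covariate; with 1 library left out they ran from -0.70 to -0.29 and from -1.36 to -0.65. For knockout under ethanol they ran from -0.34 to -0.014 and from -0.87 to -0.10, nearest 0 without library 12, and for ethanol in knockout from -0.12 to -0.04 and from -0.23 to -0.06. Single genes changed sign for knockout under PBS without libraries 8, 9 and 12 (Cox6a2 0.85, Cox7a1 1.08, Cox8b 1.28, mt-Co1 0.078) and with the covariate (Cox8b 0.11), and for knockout under ethanol with the covariate (Cox6a2 0.20, Cox8b 0.19). Without libraries 8, 9 and 12, WT PBS is 1 library.

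No paired analysis was possible because the groups share no replicate numbers. Low counts limit the precision for Ndufa4l2, Cox4i2 and the 6 low mitochondrially encoded genes, 3 pools per group limit all tests, and no protein or activity was measured.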

Other observations

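Uncoupling proteins let protons back across the inner membrane without making ATP, and neither Ucp2 nor Ucp3 passed the test in the comparisons given here. Ucp2 had 920 ± 31.4 CPM in KO ethanol libraries, 948 ± 14.2 CPM in KO PBS libraries, 807 ± 85.7 CPM in WT ethanol libraries and 852 ± 24.3 CPM in WT PBS libraries (SD, n = 3 each), and the knockout difference averaged over gavages was 0.17 (SE 0.053, adjusted p 0.328). Ucp3, which is known from skeletal muscle, had 20.3 ± 7.05 CPM in KO ethanol libraries and 6.67 ± 3.29 CPM in KO PBS libraries, and 51.6 ± 56.5 CPM in WT ethanol libraries and 29.4 ± 23.4 CPM in WT PBS libraries; the averaged ethanol difference of 1.21 (SE 0.80) did not pass the test (adjusted p 0.398). Coq8a, a coenzyme Q factor that is abundant in muscle, had 37.9 ± 4.87 CPM in KO ethanol libraries, 37.2 ± 7.48 CPM in KO PBS libraries, 82.7 ± 62.3 CPM in WT ethanol libraries and 124 ± 84.5 CPM in WT PBS libraries.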
